A study of Mus musculus with 6 samples.

Results

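The splicing factor and hnRNP genes were the genes on an Affymetrix mouse expression array whose single platform symbol starts with Srsf, Sf3a, Sf3b, Snrp, Hnrnp or Prpf and a number where the family uses one. The array holds 59 of them on 171 probe sets, a probe set being a group of short probes that gives 1 signal for a transcript. Of these, 56 genes and 152 probe sets reached a signal of 100 on at least 1 array, among 9678 measured genes, and the probe set with the highest mean log2 signal stands for each gene. The remaining 3 lay far below that minimum, with highest signals of 17.7 for Hnrnpll, 15.5 for Srsf12 and 9.55 for Snrpn. The member nearest to it on the other side, Prpf40b, had signals of 160.4, 164 and 289 after 1 Gy and 210.1, 251 and 322 at 0 Gy.

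The 6 arrays came from murine pre-B cell lines transformed with the v-abl oncogene, with 3 arrays of cells given 1 Gy of ionizing radiation and 3 of unirradiated cells (0 Gy). The study describes 3 independently derived wild type lines, from mice with an Eμ-Bcl2 transgene, in which an immunoglobulin heavy chain enhancer drives the survival factor Bcl2. The arrays are numbered 1 to 3 at each dose, and arrays of the same number, which deviated together, are taken here as the same line. All cells, irradiated or not, were held for 48 hours in 3 μM STI-571 (imatinib), which blocks the Abl kinase and arrests the lines in G1, and were collected 2 hours after exposure at 0.72 Gy per minute. They are transformed, drug-arrested lines, so that the comparison describes G1 cells under a kinase inhibitor. Medians of all probe sets were 51.7 to 54.3 at 1 Gy and 51.6 to 59.4 at 0 Gy, and 41.7% to 43.8% of probe sets reached 100. All 7 pre-B cell markers on the array were above 100, with Vpreb1, Igll1, Pax5 and Ebf1 among them, and their summed signal was 73318 to 102563 at 1 Gy and 79896 to 91676 at 0 Gy. T cell, erythroid and stromal markers were all below 100. Of 5 myeloid markers on the array, 2 had a probe set above it on some array. Itgam had 262, 342 and 235 at 1 Gy and 163, 162 and 130.1 at 0 Gy (log2 difference 0.87, adjusted p = 0.0227 from limma). Csf1r had 22.0, 33.6 and 45.0 at 1 Gy and 32.0, 55.8 and 117 at 0 Gy. That probe set, not the brightest of Csf1r, passed the minimum through 1 array at 0 Gy alone. Its lower signals at 1 Gy are therefore not read as a fall. The sum of the myeloid list, over the brightest probe set of each gene, was 357 to 468 at 1 Gy and 251 to 327 at 0 Gy, and the part of these differences in the results below was not tested. As a measure of RNA quality, the 3′ over 5′ ratio of Actb control probe sets was 1.32 ± 0.06 at 1 Gy and 1.45 ± 0.05 at 0 Gy (SD, n = 3 each, two-sided exact permutation p = 0.1, below which groups of 3 cannot go). The Gapdh ratio was 0.793 ± 0.008 at 1 Gy and 0.820 ± 0.071 at 0 Gy (exact p = 0.9). The part of RNA quality in the results was not tested.

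Splicing removes introns from the primary transcript, in steps carried out by small nuclear ribonucleoproteins (snRNPs) named U1, U2, U4, U5 and U6 after their RNA. SR proteins carry a domain rich in arginine and serine, bind exon sequences and recruit the snRNPs, and hnRNP proteins coat the nascent RNA and often oppose them. In lymphocytes these factors are known for setting the choice of isoforms such as those of the surface phosphatase CD45 and of immunoglobulin heavy chains.

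Promoter sequences were at hand for 51 of the 56 genes (67 promoters, RefSeq, GRCm38.p6), and the 3 shown belong to the genes with the largest dose differences described below. Each run is the 250 bases before the start of the transcript, 5′ to 3′. Capitals mark every match, on either strand, to 4 short motifs known from promoters. The TATA box, which places the start of transcription in some genes, was searched as TATAAA. The box bound by the factor NF-Y was searched by the letters that give it its name, CCAAT. The GC box, bound by Sp1 and its relatives, was searched as GGGCGG. The core that transcription factors of the ETS family recognise was searched as CCGGAA. Srsf10 lies on the plus strand (chr4:135855821-135856070), Prpf38a on the minus strand (chr4:108579337-108579586) and Snrpf on the minus strand (chr10:93589659-93589908). The Srsf10 window lies inside the annotated gene, which begins at base 135855752, and so precedes a later start of that gene.
Srsf10: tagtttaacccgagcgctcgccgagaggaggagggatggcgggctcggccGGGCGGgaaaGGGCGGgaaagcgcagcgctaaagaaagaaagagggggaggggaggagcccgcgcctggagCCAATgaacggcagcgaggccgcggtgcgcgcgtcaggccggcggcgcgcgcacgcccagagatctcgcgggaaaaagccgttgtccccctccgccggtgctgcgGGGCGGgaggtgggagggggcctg
Prpf38a: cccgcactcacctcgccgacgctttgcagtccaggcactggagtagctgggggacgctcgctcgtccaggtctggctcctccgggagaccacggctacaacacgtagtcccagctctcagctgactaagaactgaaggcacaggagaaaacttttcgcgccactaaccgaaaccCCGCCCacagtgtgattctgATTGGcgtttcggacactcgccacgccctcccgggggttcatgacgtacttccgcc
Snrpf: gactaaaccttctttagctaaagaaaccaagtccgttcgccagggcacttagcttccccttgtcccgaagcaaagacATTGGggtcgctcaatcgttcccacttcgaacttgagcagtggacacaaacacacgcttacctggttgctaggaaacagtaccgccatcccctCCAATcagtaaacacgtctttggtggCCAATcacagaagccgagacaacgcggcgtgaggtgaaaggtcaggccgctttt
The Srsf10 promoter held 3 GC boxes and 1 CCAAT box at 72% G and C, that of Prpf38a 1 of each at 61.2%, and that of Snrpf 3 CCAAT boxes and 0 GC boxes at 52%. None of these 3 windows held a TATA box or an ETS core. Over all 67 promoters of the group, an ETS core was present in 47.8% (32), a GC box in 64.2% (43) and a CCAAT box in 49.3% (33), against 12.0%, 32.7% and 33.8% of the 32851 promoters of all genes. A TATA box was present in 5.97% of the group and 12.4% of all. The group's promoters were richer in G and C (median 60.4% against 52.4%) and in CpG (median 20 against 6 in 250 bases), and ETS cores and GC boxes hold these letters themselves. Matches to different motifs may share bases, and a match is a description of the sequence only.

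The fitted dose differences of the splicing factor and hnRNP genes, by their brightest probe sets, were all under 1.5-fold 2 hours after 1 Gy. Blocked by cell line, limma called 0 of 56 higher and 0 lower (adjusted p under 0.05), where 21.3% of the 9678 measured genes were called, 6.61% higher and 14.7% lower. Before adjustment, 4 reached p under 0.05 upward and 4 downward, 8 of 56 together, against 12.4% and 27.8% of all genes, or 40.3% together. Without the block, limma also called 0 of the 56 (5 higher and 1 lower at an unadjusted p under 0.05), against 5.31% of all genes. The test of the study's methods was run here on the deposited signals with 1 probe set per gene, not on the study's own processed values. It picked 0 of the 56 and 14.4% of all genes. That test asks for 1.5-fold, which none of the 56 reached by its brightest probe set. At its p of 0.05 alone 6 were higher and 2 lower. Limma also called 0 of the 56 after quantile normalization (19.2% of all genes) and after median scaling (19%). The lowest adjusted p was 0.0561, and 6 genes lay under 0.1. For these few the call depends on the setting. Limma called 3 of 56 when a signal of 100 was asked of 3 arrays (28.1% of all genes), 3 on log2(signal + 16) (25% of all genes), 4 with signals floored at 100 (23.5%), and 8 with a trend in its variance prior, 5 higher and 3 lower, where 11% of all genes were called higher and 22.2% lower (33.2% together).

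The size of the differences can be read apart from the threshold. The log2 difference (1 Gy minus 0 Gy) ran from -0.54 to 0.52, with a median of 0.08 beside -0.11 over all genes, and 33 of the 56 were positive. By its brightest probe set none reached 1.5-fold, a size that 27.0% of all genes reached. Further probe sets of Srsf10 and Srsf3, described below, did pass that size. The largest difference on a brightest probe set, 1.45-fold, was equalled or passed by 30.3% of all genes. The standard errors were 0.11 to 0.15, with a median of 0.12 beside 0.13 over all genes. They lean on a variance that limma shares over all probe sets, so they do not measure the agreement of the 3 lines alone. The 95% confidence interval stayed within 2-fold either way for all 56 genes and within 1.5-fold for 43 of them (76.8%), against 71.0% and 36.4% of all genes. The smallest log2 difference called in any gene was 0.48 in size, which only 3 of the 56 reached, so that smaller shifts were not detectable in this fit of 3 lines. The group is also bright, with 52 of 56 at a mean signal of 1000 or more. Among all 4408 genes that bright, 18.9% were called and 18.8% reached 1.5-fold, with a median log2 difference of 0.00 beside 0.11 for these 52. Because each array was scaled to the same mean, and bulk RNA was measured, a change in all transcripts alike would not show, and fewer cells of a type and less RNA per cell cannot be told apart.

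**Figure D1:**
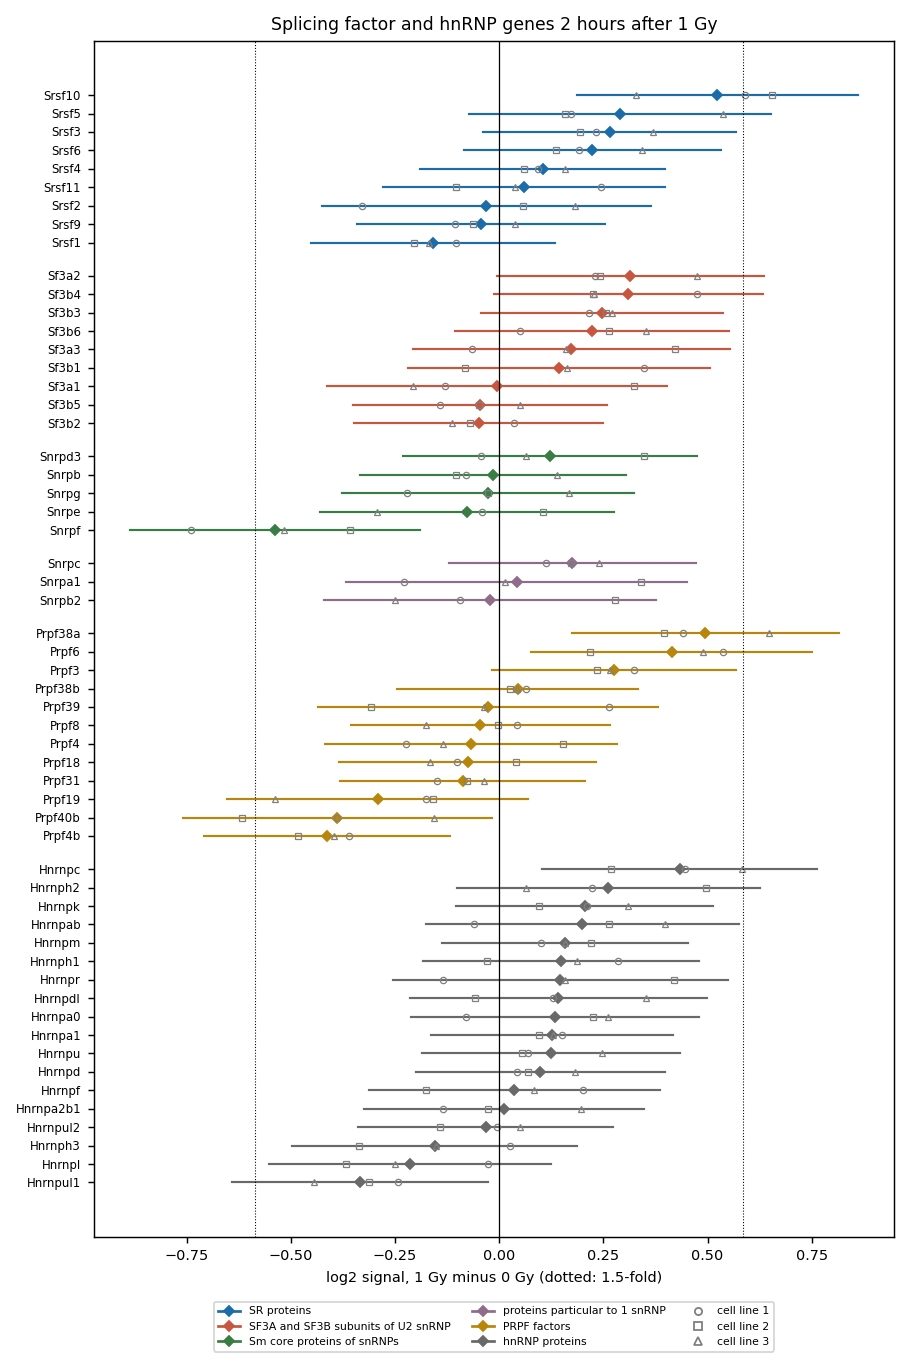
Log2 signal of 1 Gy minus 0 Gy (horizontal axis) for the 56 genes grouped by role (vertical axis, symbols), with diamonds for the fitted difference, bars for its 95% confidence interval and open markers for each of the 3 cell lines; dotted lines mark 1.5-fold. No diamond lies beyond the dotted lines, with Srsf10 at 0.52 furthest to the right and Snrpf at -0.54 furthest to the left.

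The signal was higher after 1 Gy in 3 of 3 lines for 21 of the 56 genes (37.5%, against 23.7% of all genes) and lower in 3 of 3 lines for 8 (14.3%, against 41.3%). Among the bright genes alone the shares were closer for the higher ones, 40.4% of the 52 against 32.8% of all genes at 1000 or more, and apart for the lower ones, 11.5% against 33.9%; these differences were not tested. The 3 irradiated arrays all lay above the 3 unirradiated ones for 8 genes and all below for 2, where 12.3% and 20.6% of all genes did so. Those at 1000 or more did so in 15.4% and 3.85% of the group and 18.4% and 17.6% of all genes. The line medians of the group were 0.04, 0.06 and 0.15 on the log2 scale, against -0.09, -0.13 and -0.12 over all genes. The small positive median of the group moved to -0.00245 after quantile normalization (-0.08 over all genes), so that its sign is not settled.

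**Figure D2:**
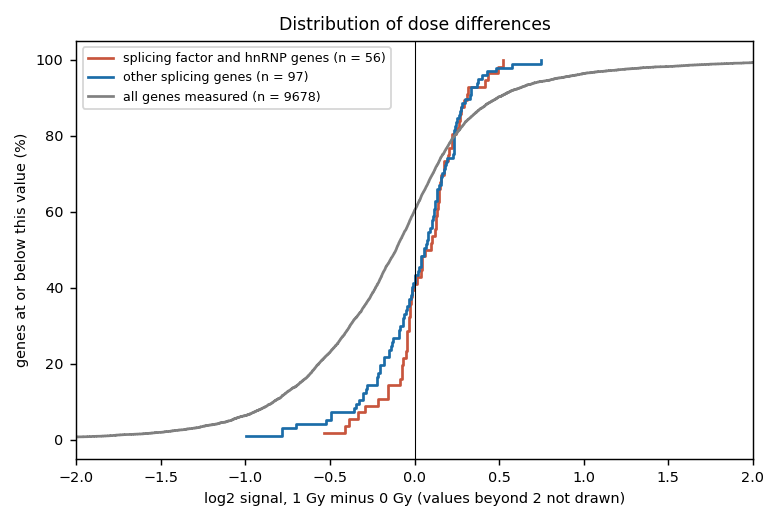
Percentage of genes (vertical axis) at or below each log2 difference of 1 Gy minus 0 Gy (horizontal axis) for the 56 splicing factor and hnRNP genes, 97 other splicing genes and all 9678 measured genes. The curve of the 56 genes is the steepest, running from -0.54 to 0.52, and crosses 50% at 0.08 where that of all genes crosses at -0.11.

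Of the 9 SR proteins measured, limma called 0, and 6 were positive and 3 negative (median log2 difference 0.10). Srsf10, an SR protein that acts as a splicing repressor when dephosphorylated, had signals of 2194, 2619 and 2430.2 after 1 Gy and of 1459, 1664 and 1936 at 0 Gy. All 3 irradiated arrays were above all 3 unirradiated ones. Its log2 difference was 0.52 (95% confidence interval 0.19 to 0.86, adjusted p = 0.0561 from limma, and 0.132 without the block). Srsf5, the SR protein with the brightest probe set, had 15554, 13510.0 and 15597 after 1 Gy and 13803, 12108 and 10742 at 0 Gy, higher in 3 of 3 lines with overlapping groups (0.29, interval -0.07 to 0.65, adjusted p = 0.202 from limma; 0.13 after quantile normalization). Srsf3, a small SR protein that controls its own splicing, Srsf6 and Srsf1 were chosen after their values were seen. Srsf3 and Srsf6 had log2 differences of 0.27 and 0.22 and were higher in 3 of 3 lines, with adjusted p of 0.173 and 0.237 (limma). Srsf1, the founding SR protein, was lower in 3 of 3 lines by its brightest probe set (7210.4, 6060.0 and 7093 after 1 Gy, 7748, 6985 and 7972 at 0 Gy), with a log2 difference of -0.16 and an interval of -0.45 to 0.13.

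The SF3A and SF3B subunits, which hold the U2 snRNP at the branch point of the intron, had 0 of 9 called by limma and 0 at an unadjusted p under 0.05. Their log2 differences were positive in 6 and negative in 3, with a median of 0.17. Sf3a2, a subunit that joins SF3A to the U2 snRNP, had the largest, with 4244, 4416 and 4611 after 1 Gy and 3621, 3736 and 3321 at 0 Gy, and its groups did not overlap. The difference was 0.31 (interval -0.01 to 0.64, adjusted p = 0.141 from limma). The groups of Sf3b3 and Sf3b4, chosen after their values were seen, did not overlap either (log2 differences of 0.25 and 0.31). Sf3b1, the large subunit that contacts the branch point and is often mutated in leukaemias, had 16660.3, 12634 and 14460.4 after 1 Gy and 13094, 13370.5 and 12914 at 0 Gy. Line 2 was lower and the other two lines higher, with a log2 difference of 0.14 (interval -0.22 to 0.50) that turned to -0.03 after quantile normalization.

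Sm proteins form the ring around the RNA of each snRNP. Limma called 0 of the 5 measured. Snrpf, which encodes the ring protein F, had 1879, 1903 and 2638 after 1 Gy and 3136, 2438 and 3773 at 0 Gy, lower in each line while the groups overlapped. The log2 difference was -0.54 (interval -0.89 to -0.19, adjusted p = 0.0564 from limma, and 0.237 without the block). The other 4, Snrpb, Snrpd3, Snrpe and Snrpg, had log2 differences of -0.08 to 0.12. Snrpe, the Sm gene with the brightest probe set, had 14984, 12798 and 13006 after 1 Gy and 15420.2, 11905 and 15926 at 0 Gy (adjusted p = 0.712 from limma). The difference between Snrpf and the other ring proteins was not tested.

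Of the proteins particular to 1 snRNP, 3 were measured and 0 called. Snrpc, a U1 protein that helps to recognise the 5′ splice site, had 2398, 2106 and 2103 after 1 Gy and 2218, 1868 and 1780.1 at 0 Gy, higher in 3 of 3 lines (log2 difference 0.18, interval -0.12 to 0.47). The U2 proteins Snrpa1 and Snrpb2 had differences of 0.04 and -0.02. Snrpb2, the brightest of the 3, was higher in line 2 and lower in lines 1 and 3, with 3989, 4799 and 4388 after 1 Gy and 4254, 3958 and 5221 at 0 Gy.

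PRPF factors, named after yeast genes of precursor RNA processing, had 0 of 12 called, 2 higher and 2 lower at an unadjusted p under 0.05, and a median log2 difference of -0.06. Prpf38a, needed for activation of the assembled spliceosome, had 2415, 2317 and 2642 after 1 Gy and 1779, 1761 and 1686 at 0 Gy. The groups did not overlap. Its log2 difference was 0.49 (interval 0.18 to 0.81, adjusted p = 0.0561 from limma, and 0.0885 without the block). The mean of its 3 probe sets gave 0.14 (adjusted p = 0.568 from limma). Prpf6, which bridges the U5 and the U4/U6 snRNPs, had 2283, 2171 and 2504 after 1 Gy and 1574, 1868 and 1785 at 0 Gy, also without overlap (0.41, adjusted p = 0.0910 from limma). Prpf4b, a kinase that phosphorylates splicing factors, had 2472, 2574 and 3027 after 1 Gy and 3173, 3594 and 3984 at 0 Gy (-0.41, interval -0.71 to -0.12, adjusted p = 0.0696 from limma). Its groups did not overlap. Prpf6, Prpf4b and Prpf8 were chosen after their values were seen. Prpf19, a ubiquitin ligase of the spliceosome with a further role at damaged DNA, had 7098, 7301 and 4916 after 1 Gy and 8020.5, 8150.1 and 7141 at 0 Gy. It was lower in 3 of 3 lines on each of its 4 probe sets (log2 differences of -0.40 to -0.23), and the brightest gave -0.29 (interval -0.65 to 0.07, adjusted p = 0.200 from limma; -0.17 without line 3). Prpf8, the scaffold at the catalytic centre, had a difference of -0.05 with an interval of -0.36 to 0.27.

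Among the 18 hnRNP genes, 14 had a positive and 4 a negative difference, with a median of 0.13 and 0 called. Hnrnpc, which binds runs of U and keeps cryptic exons out of messages, had the largest, with 17527, 14835 and 17729.8 after 1 Gy and 12865, 12311 and 11835 at 0 Gy. No irradiated array reached down to the unirradiated ones. The log2 difference was 0.43 (interval 0.10 to 0.76, adjusted p = 0.0791 from limma, and 0.137 without the block), and 0.27 after quantile normalization. Hnrnpk, the hnRNP gene with the brightest probe set, encodes a cofactor of p53, and had 20706, 16439 and 19378 after 1 Gy and 17899, 15374 and 15636 at 0 Gy. It was higher in 3 of 3 lines by 0.21 (interval -0.10 to 0.51, adjusted p = 0.270 from limma), and by 0.04 after quantile normalization. In the other direction, Hnrnpul1, an hnRNP linked to the processing of DNA ends, had 5270.0, 5635 and 4549 after 1 Gy and 6238, 6995 and 6189 at 0 Gy, without overlap (-0.33, adjusted p = 0.116 from limma; chosen after its values were seen). Of the A and B proteins, which coat much of the nascent RNA, Hnrnpa1 had a difference of 0.13 and Hnrnpa2b1 of 0.01. Hnrnpl, which silences the variable exons of CD45, had -0.21 (interval -0.55 to 0.12). These 3 were also chosen after their values were seen.

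**Figure D3:**
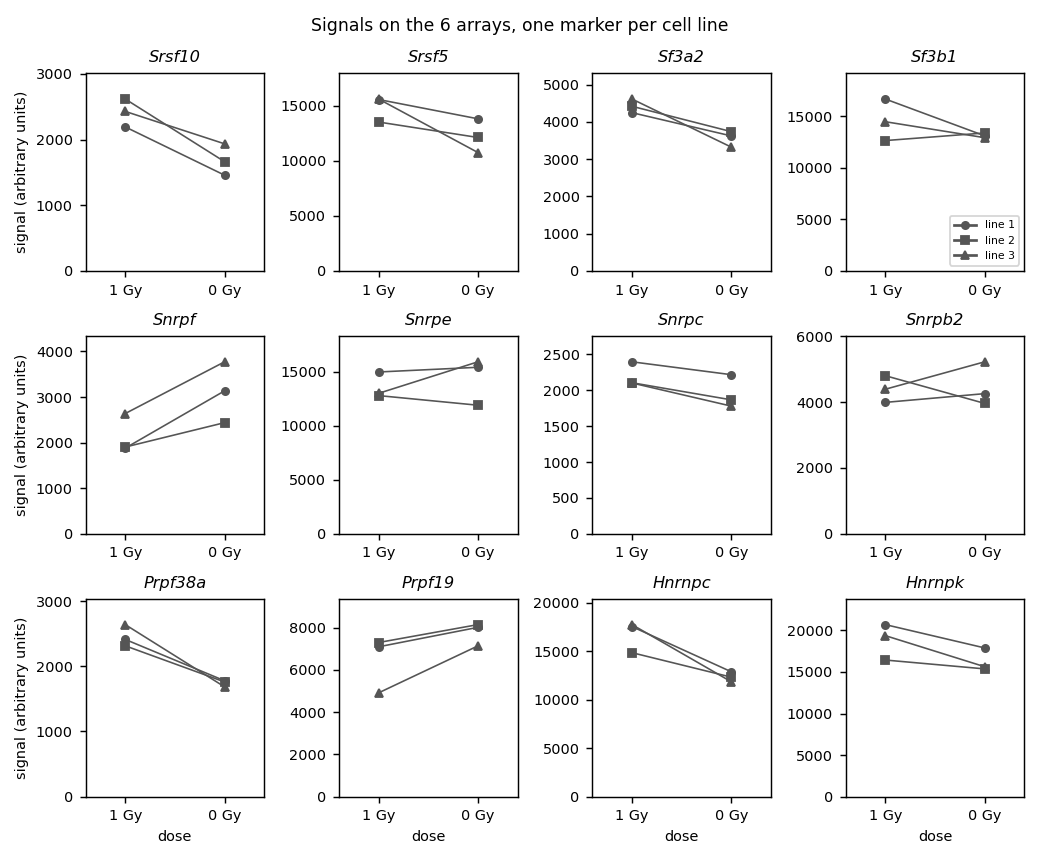
Signal on a linear scale from 0 (vertical axis, arbitrary units) at 1 Gy and 0 Gy (horizontal axis) for 12 genes, the brightest and the most different of each role, each pair of same-numbered arrays being connected. The 3 pairs slope alike in 9 of the 12 genes, with the lower signals at 1 Gy in Snrpf and Prpf19, and both ways in Sf3b1, Snrpe and Snrpb2.

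Several probe sets per gene gave a check on the brightest one. Of the 56 genes, 40 had more than 1 measured probe set. The probe sets pointed the same way in 19 of these genes and both ways in 21, and the median spread of log2 differences within a gene was 0.18. Of all 152 probe sets, 2 were called higher and 0 lower by limma (1.32%, against 18.3% of all 21762 probe sets, 6.78% higher and 11.5% lower), and both belong to genes near the threshold. The second probe set of Srsf10 had 1939, 2511 and 1512 after 1 Gy and 1259, 1589 and 944 at 0 Gy, a log2 difference of 0.65 (adjusted p = 0.0270 from limma), and all 4 of its probe sets were positive, from 0.35 to 0.65. The second probe set of Hnrnpc had 1954, 2148 and 1929 after 1 Gy and 1441, 1505 and 1315 at 0 Gy (0.50, adjusted p = 0.0463 from limma). Srsf3 was positive on all 6 of its probe sets, from 0.21 to 0.67, with 0 called. Srsf1 went both ways over 6 probe sets, from -0.54 (adjusted p = 0.0510 from limma) to 0.24, and Prpf38a from -0.46 to 0.49, the negative value on a probe set with signals of 124 to 215. Srsf3, Srsf1 and these further probe sets were chosen after their values were seen. Probe sets of 1 gene can read different ends or isoforms of its transcripts, and 10 of the 56 brightest are of the _s_at or _x_at kind, which can also bind related transcripts, so that Srsf1, Srsf2, Sf3a2, Sf3b2, Sf3b5, Snrpb, Snrpe, Snrpg, Prpf19 and Hnrnpf are uncertain in that respect.

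**Figure D4:**
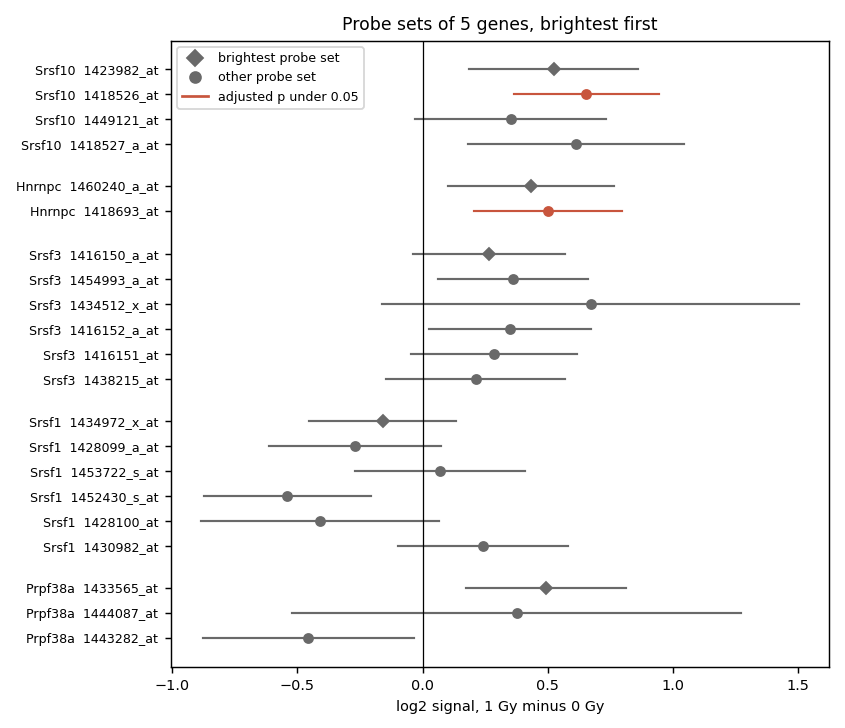
Log2 signal of 1 Gy minus 0 Gy (horizontal axis) with 95% confidence intervals for each measured probe set of Srsf10, Hnrnpc, Srsf3, Srsf1 and Prpf38a (vertical axis), diamonds marking the brightest and red an adjusted p under 0.05. The fitted values of Srsf10, Hnrnpc and Srsf3 all lie right of 0, and those of Srsf1 and Prpf38a lie on both sides.

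The signals also varied between the cell lines, each taken as the mean of its 2 arrays. The range over the 3 lines had a median of 0.28 on the log2 scale beside 0.40 over all genes, and 6 of the 56 reached 1.5-fold against 33.7% of all genes. Srsf2, an SR protein mutated in myeloid neoplasms, was the only one of the 56 past 2-fold, with 4405, 3857 and 2549.9 in lines 1, 2 and 3 after 1 Gy and 5537, 3709.6 and 2248 at 0 Gy. Its line range was 1.04 and its dose difference -0.03. Hnrnpl followed with a line range of 0.90 (5617, 3949 and 2787 after 1 Gy, 5720.5, 5098 and 3311 at 0 Gy), and then Prpf40b and Sf3b5 with 0.73 each. In all 4 the order of the lines was the same at both doses. They were picked for these ranges, which are a description with no test and are not on 1 footing with the dose differences, since a range over 3 means of 2 arrays tends to exceed a difference between 2 means of 3 arrays. A line and the handling of its arrays cannot be told apart.

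**Figure D5:**
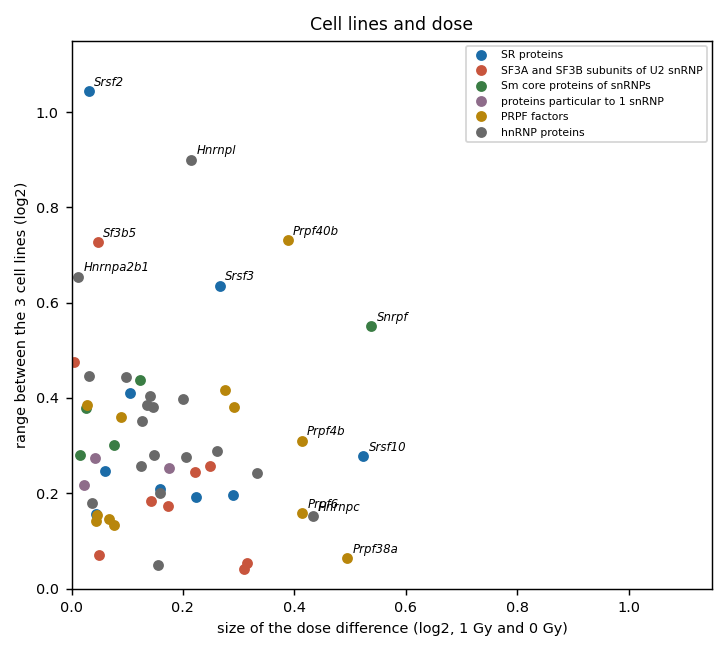
Range between the 3 cell lines (vertical axis, log2) and size of the dose difference (horizontal axis, log2) for the 56 genes, coloured by role. Srsf2 lies at the top with a range of 1.04 and a dose difference near 0, and Snrpf, at 0.54, lies furthest to the right.

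Of 97 measured genes that encode further spliceosome components, regulators of splicing and snRNP assembly factors, limma called 2 higher and 5 lower (7 of 97, or 7.22%, against 21.3% of all genes), and the median log2 difference was 0.06. Bud31, a component of the activated spliceosome, rose to 10794, 11304 and 12971 after 1 Gy, against 6496, 7380.1 and 6970.0 at 0 Gy (0.75, adjusted p = 0.0254 from limma, and 0.0460 without the block). The Bud31 probe set is of the _s_at kind, which can also bind related transcripts. Rbm25, a regulator of alternative exons that binds U1, rose by 0.58 (adjusted p = 0.0373 from limma, and 0.0837 without the block). Of the genes of the 3 Muscleblind proteins, which switch exons during differentiation, 2 were called lower. Mbnl1 had 9622, 8505 and 8959.8 after 1 Gy and 14527, 16134 and 16047 at 0 Gy (-0.79, adjusted p = 0.0252 from limma, and 0.0367 without the block). Mbnl3 had 708, 382 and 297 after 1 Gy and 1248, 752 and 684 at 0 Gy (adjusted p = 0.0181 from limma, and 0.205 without the block). The groups of Mbnl3 overlapped. Mbnl2 was also lower in each line, without overlap, but was not called (log2 difference -0.50, adjusted p = 0.0763 from limma). Gemin2, of the complex that loads Sm rings onto snRNAs, fell by 0.78 on the log2 scale (adjusted p = 0.0266, and 0.0898 without the block). The remaining 2 were exon regulators near the threshold. Celf2 had -0.52 (adjusted p = 0.0449 from limma, and 0.0961 without the block) and Ptbp3 -0.49 (0.04995, and 0.103 without the block). With any 1 of the 3 lines left out, limma called 0 of the 97 (2 to 3 higher and 5 to 7 lower at an unadjusted p under 0.05). Of all genes it then called 0% to 1.58%, so that this 0 says nothing about stability. Without the block it called 2 of the 97, Bud31 and Mbnl1 (5.31% of all genes). On the mean of each gene's probe sets limma called 5 (23.4% of all genes), namely Bud31, Gemin2, Mbnl2, Mbnl3 and Ptbp3. Mbnl1, Rbm25 and Celf2 thus lost their calls. Celf2, Ptbp3, Mbnl2 and the Snrnp gene below were chosen after their values were seen. A further 7 snRNP genes carry the prefix Snrnp, which the choice of symbols leaves out, and of these limma called 1 higher and 0 lower. That gene, Snrnp35, encodes a protein of the U11 snRNP of the minor spliceosome and had 623, 692 and 850.3 after 1 Gy and 446, 444 and 487 at 0 Gy (0.64, adjusted p = 0.0356 from limma, and 0.0861 without the block).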

How the data were processed

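RNA of 6 cell samples was measured on Affymetrix mouse arrays. The intensity of each probe set was deposited by the authors on a linear scale, and MAS5 is the tool in the submitters' processing notes. Trimmed of its extreme 2% at both ends, every array averages 500; the RMA and quantile steps of the study's own analysis are not in these values. Control probe sets (64) were left out, signals under 1 were set to 1, and log2 values were taken. Of 45037 probe sets, 21762 reached 100 on 1 or more arrays and entered limma (version 3.58.1, R 4.3.3), as 1 Gy against 0 Gy blocked by line, adjusted by Benjamini-Hochberg over all of them. Confidence intervals come from the same fit. The study's ANOVA names dose only, so a fit without the block was run beside it. The labels number the arrays but do not name the lines. Arrays were paired by number. As a check, deviations from group means correlated at 0.668 to 0.781 for same-numbered arrays (3 pairs). Those of other pairs correlated at -0.495 to -0.053 (6 pairs). Deviations within a group of 3 sum to 0, so that these correlations are not independent of each other. P-values of the blocked fit rest in part on how the dose difference varies between 3 lines. The block removes the spread of the lines' levels. They also rest on a variance shared over all probe sets, toward which limma draws that of each one. The 6 arrays limit what can be resolved. Symbols came from the platform annotation (34945 probe sets with 1 symbol, 932 with several and 9160 not listed; only the first kind was named).

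Genes were named by a rule, the brightest and the most different gene of each role, called genes, and the 3 highest and 3 lowest called among other splicing genes. Any other gene given with values was chosen after its values were seen. Genes and lists were chosen with earlier results of these data known. Alternatives were no block, no filter or a minimum on 3 arrays, quantile normalization, median scaling, a pseudocount of 16, a floor of 100, a variance trend, averaging a gene's probe sets, the test of the study's methods, and leaving out each line.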

Additional observations from a re-analysis of the deposited data

How the results depend on the processing

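The count of splicing factor and hnRNP genes called was 0 of 56 without the block (5.31% of all genes). It was also 0 after quantile normalization (19.2%) and after median scaling (19%). By the test of the study's methods it was 0 as well (14.4%, and 2.11% after Benjamini-Hochberg adjustment). The adjusted version of that test, here and below, asks for an adjusted p under 0.05 and drops the 1.5-fold. Without a filter it was 0 of 59, where 0 of all 18193 genes were called. Without any 1 of the 3 lines it was 0 of 56, where 0% to 1.58% of all genes were called. A 0 of either kind says nothing about the group. Over these settings, 0 to 6 were higher and 0 to 3 lower at an unadjusted p under 0.05 (limma unless stated). The count was 3 with a minimum of 100 on 3 arrays and with log2(signal + 16) (Prpf38a, Snrpf and Srsf10 in both), 3 with the mean of all probe sets (Hnrnpc, Snrpf and Srsf10), 4 with a floor of 100 (Prpf4b in addition to the first 3) and 8 with a variance trend (5 higher and 3 lower, with Hnrnpc, Hnrnpul1, Prpf6 and Sf3a2 in addition). In these 5 settings all genes were called at 28.1%, 25%, 23.4%, 23.5% and 33.2%. By role, SR proteins had 1 call (Srsf10) and Sm proteins 1 (Snrpf) in each of the 5, PRPF factors 1 (minimum on 3 arrays, log2(signal + 16)), 2 (floor) and 3 (trend), hnRNP proteins 1 (mean of probe sets) and 2 (trend), and SF3 subunits 1 (trend).

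Over all probe sets, 3974 were called with the block and 975 without the replicate block, 0 without a filter (2908 higher and 4060 lower at an unadjusted p under 0.05, limma), 6121 with the trend, 352 by the methods' test after adjustment, and 0 to 299 without 1 line, the 299 being without line 3 (without line 1 or 2, 2348 to 2515 higher and 4055 to 4112 lower at an unadjusted p under 0.05). For genes these counts were 2059, 514, 0, 3216, 204 and 0 to 153. Of the 97 other splicing genes, 7 were called, and 2 without the replicate block (Bud31 and Mbnl1), 0 without a filter (2 higher and 5 lower at an unadjusted p under 0.05), 15 with the trend, 5 with the mean of probe sets (without Mbnl1, Rbm25 and Celf2, with Mbnl2), 3 and 1 by the methods' test before and after adjustment, and 0 without any 1 line (2 to 3 higher and 5 to 7 lower at an unadjusted p under 0.05). The median log2 difference of the group was 0.08, and -0.00245 after quantile normalization. Differences near 0 changed sign for Sf3b1 (-0.0301 after quantile normalization), Snrpb2 (0.0272 after median scaling, and -0.172 to 0.0925 without 1 line, positive without line 1 and without line 3) and Snrpe (-0.167 to 0.0314 without 1 line, positive without line 3). The causes were not tested. With 2 lines left, 0 calls say nothing about stability.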
